A study of Saccharomyces cerevisiae with 94 samples.

Results

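XUTs are noncoding RNAs of budding yeast that are named for building up when Xrn1, the main cytoplasmic 5′ to 3′ exonuclease, is absent. The XUTs described here are all transcript entries that the deposited tables assign to the biotype XUTs, which makes 1129 entries of 13252 in all. The other entries include 10949 ORF transcripts, 782 CUTs (cryptic unstable transcripts, removed mainly in the nucleus) and 240 SUTs (stable unannotated transcripts). The rest belong to further classes, such as small nuclear and ribosomal RNAs, and count in the library totals. The choice of members used no measured value. However, the class was named from RNA of Xrn1 mutants in other work, so a higher level without Xrn1 is part of its definition. The reads were native polyadenylated RNAs of Saccharomyces cerevisiae strains, all labelled W303, sequenced on Nanopore so that each read gave 1 RNA molecule and the length of its pA-tail.

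The series holds 94 samples, and the XUTs were followed in 55 columns of the tables, each a library or a pool of libraries. Xrn1-AID and Dcp2-AID cells carried the named protein with an auxin-inducible degron, a tag that leads to its destruction once auxin is added, and the labels give 2 h of the auxin 1-NAA at 25 °C for them and for the auxin-treated control, with 2 samples pooled in each. Pab1-AID cells were taken after 1 h and 2 h of auxin and without auxin (0 h), also as pools of 2 samples; the 0 h samples carry the degron according to their genotype label, while their titles call them wild type. The deadenylase strains were a ccr4 deletion (6 samples pooled), a pan2 deletion (3 samples pooled) and a pop2 deletion (1 library). The first 2 were set against a pool of 8 wild-type samples. Treatment labels give 25 °C for all of these samples, whereas the titles of the wild-type samples, the names of the pooled columns and the study's list of libraries give 30 °C; the conflict could not be settled. The study's strain list also gives the ccr4 and pan2 deletions another parent than W303, with a wild type of its own, while the labels name W303 for them and for wild type. Strain background and deletion cannot be told apart in these comparisons. In the same list Xrn1-AID and Pab1-AID, but not Dcp2-AID, carry the anchor-away background, and Pab1-AID is listed with tagged Mex67. The pop2 deletion was set against 1 library of undigested wild-type RNA. The same undigested library was the reference for 1 library of wild-type RNA digested with Xrn1 in the tube. Mex67-AA cells (replicates A, B and C) were sampled at 0 min and up to 30 min after rapamycin at 25 °C; anchor-away moves a tagged protein out of the nucleus when rapamycin is added, and Mex67 is the main mRNA export factor. Heat libraries (replicates A, B and D) came from cells at 25 °C (0 min) and at 2 to 20 min after a shift to 37 °C, and thiolutin, a transcription inhibitor, was followed for 60 min in replicate A. Pools have no spread between samples, so their ratios carry counting intervals only and no test. The replicates of the chases were biological replicates according to the study.

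By background knowledge, most XUTs are made by RNA polymerase II, capped and polyadenylated like mRNAs, and many run antisense to a gene. They reach the cytoplasm, where Dcp2, the catalytic subunit of the decapping enzyme, removes the cap and Xrn1 degrades the body from the 5′ end. Before that step, Ccr4 and Pop2, nucleases of the Ccr4-Not complex, and Pan2, the nuclease of the Pan2-Pan3 complex, shorten the pA-tail, which is covered by the pA-binding protein Pab1.

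Of the 1129 XUTs, 571 lie on the plus and 558 on the minus strand, over all 16 chromosomes, with the most (133) on chromosome IV. Their lengths run over 257 to 5196 bases with a median of 814. Antisense overlap of at least 1 base with an ORF transcript was found for 794 XUTs (70.3%). Some of these overlaps are short, such as the 7 bases that XUT_13F-3,SUT285 shares with COX14. In detail, 755 overlapped ORF transcripts on the opposite strand only, 39 on both strands and 54 on the same strand only, while 281 overlapped none and are called intergenic here. Overlap was counted only with entries of the ORF class. Some entries called intergenic therefore bear the name of an ORF themselves, among them YNR068C,YNR069C,SUT758,XUT_14R-340. Intergenic XUTs were 24.9% of the entries and took 30.8% of the XUT reads. For 401 ORF transcripts, XUTs covered at least 50% of the length on the opposite strand. The classes share names: 413 XUT entries also bear the name of a SUT and 19 the name of an ORF, and reads of the 93 entries with a same-strand overlap cannot be told apart from those of their neighbour with certainty.

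The 3′ ends of 6 XUTs that recur in the results are printed below, each as the last 100 bases of the deposited entry, 5′ to 3′ on its own strand. The bases were read from the RefSeq R64 assembly of the reference strain S288C, which has the positions of sacCer3, the build in the submitters' processing notes, whereas the labels name W303. Capitals mark TATATA, the strongest form of the efficiency element that helps to set the cleavage site of yeast transcripts. XUT_4R-336 and XUT_7R-426 had the most reads of all XUTs, XUT_13F-80,SUT295 lies antisense to CYB2 and XUT_15R-116,SUT768 antisense to ARG1, XUT_13F-3,SUT285 was higher after heat, and XUT_10F-42 was higher after Mex67 depletion.
XUT_4R-336 (chrIV:803028-803127, minus): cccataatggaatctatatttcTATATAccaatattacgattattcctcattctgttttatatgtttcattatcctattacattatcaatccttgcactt
XUT_7R-426 (chrVII:931335-931434, minus): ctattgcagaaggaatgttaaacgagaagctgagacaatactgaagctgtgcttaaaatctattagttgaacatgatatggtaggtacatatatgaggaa
XUT_13F-80,SUT295 (chrXIII:168606-168705, plus): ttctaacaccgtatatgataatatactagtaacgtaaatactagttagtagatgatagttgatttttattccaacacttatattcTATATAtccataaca
XUT_15R-116,SUT768 (chrXV:219022-219121, minus): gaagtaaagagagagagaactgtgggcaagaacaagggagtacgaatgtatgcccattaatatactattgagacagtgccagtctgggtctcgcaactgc
XUT_13F-3,SUT285 (chrXIII:14256-14355, plus): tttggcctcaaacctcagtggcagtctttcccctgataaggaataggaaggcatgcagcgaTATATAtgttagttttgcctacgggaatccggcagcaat
XUT_10F-42 (chrX:96815-96914, plus): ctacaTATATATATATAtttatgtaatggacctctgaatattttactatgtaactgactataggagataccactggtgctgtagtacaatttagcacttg

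XUT_4R-336, XUT_13F-80,SUT295 and XUT_13F-3,SUT285 hold 1 TATATA each, XUT_10F-42 holds 4 overlapping copies, and the windows of XUT_7R-426 and XUT_15R-116,SUT768 hold none. Over all entries with a position, TATATA occurred in the last 100 bases of 175 XUTs (15.5%), against 33.0% of 5911 ORF transcripts, 13.7% of CUTs, 26.9% of SUTs and 28.5% of all windows. The letters read the same on both strands. AATAAA, a form of the positioning element, was found in 11.9% of XUT windows and in 17.0% of ORF windows on the transcript's strand, and its reverse complement TTTATT in 11.3% of XUT and 16.1% of ORF windows. The XUT windows had a median of 64% A and T, and the ORF windows 68%. These are matches of letters and not mapped cleavage sites. For 16 of 51 noncoding genes found by name in both annotations the deposited start lay 1 base below that of RefSeq, so windows on the minus strand may end 1 base late.

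In the 55 columns, 1105 XUTs had at least 1 read, 24 had none and 13 had a read in every column. Together they held 197890 reads with a median of 54 per XUT, and the reads were concentrated: the 10 XUTs with most reads took 17.7% and the top 100 took 51.7%. Library totals without ENO2, the spike-in of the sequencing kit, ran over 25838 to 5485510 reads, and 84 to 851 XUTs were detected in a column. In the pool of wild-type cells 851 XUTs were detected and 442 had at least 10 reads, the minimum for a tail value here. XUT reads were 0.370% of that pool (20295 of 5485510 reads), 0.362% of the Pab1-AID 0 h pool and 0.392% of the undigested wild-type library. The auxin-treated control of the Xrn1-AID and Dcp2-AID strains stood apart, with 0.803%, and what sets it apart was not tested. The targeted genes fitted the labels of the deletions: CCR4 and PAN2 had 10 and 2 reads in their deletions against 172 and 181 in wild type, and POP2 had 1 against 75. In the degron strains, XRN1 had 12 reads in the Xrn1-AID pool against 262 in its control, and DCP2 had 8 in the Dcp2-AID pool against 154. The degron acts on the protein, so mRNA reads do not check the depletion of Xrn1, Dcp2 or Pab1. What lowered the XRN1 and DCP2 reads was not tested.

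XUT RNA was more abundant in both strains with an impaired 5′ decay route. The share of reads was 1.27% in the Xrn1-AID pool (12957 of 1020645 reads) against 0.803% in the control (14088 of 1753944 reads), a ratio of 1.58 with a 95% interval of 1.54 to 1.62. In the Dcp2-AID pool it was 2.23% (21837 of 978487 reads), 2.78 times the control (95% interval 2.72 to 2.84). Both comparisons use the same control pool. These intervals cover counting error only.

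**Figure D1:**
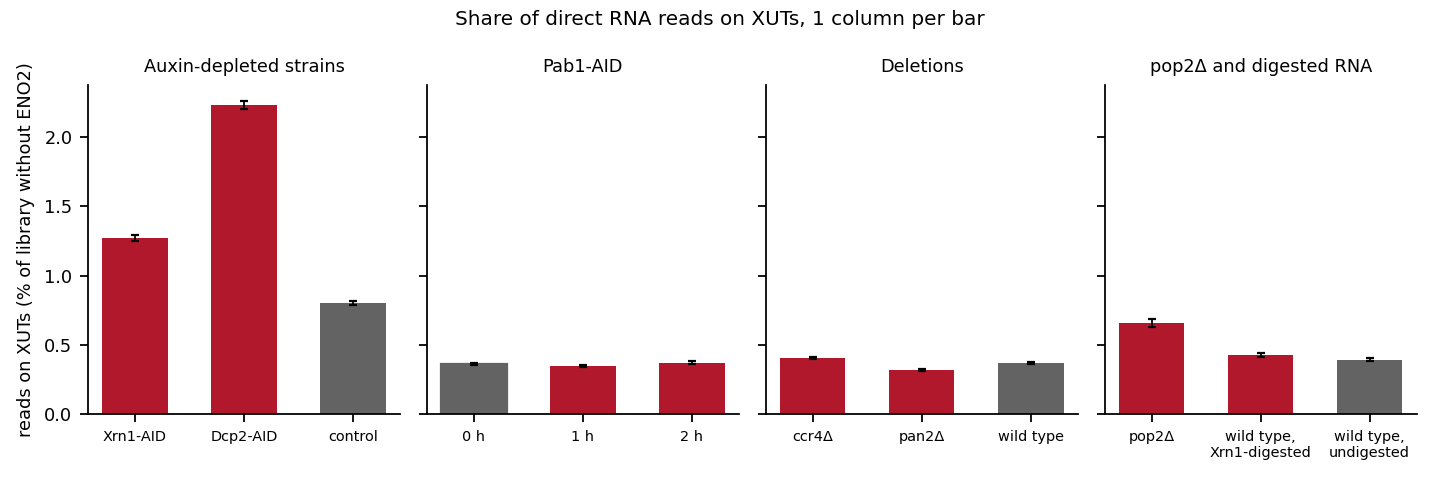
XUT share of reads in percent (ENO2 left out) in each strain pool or library, with 95% counting intervals. Each strain stands left of its reference, except for Pab1-AID, where the 0 h reference stands left. Dcp2-AID is highest with 2.23%, Xrn1-AID follows with 1.27%, and the control of both has 0.803%.

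At the level of single XUTs, ratios were taken for entries with at least 20 reads in both columns together, on the log2 scale with 0.5 reads added. Of 366 such XUTs in the Xrn1-AID comparison, 149 were at least 2-fold higher and 24 at least 2-fold lower, where 13.5% and 9.1% of all transcripts were. Their median log2 ratio was 0.79, against 0.14 over all transcripts. In the Dcp2-AID comparison, 325 of 419 XUTs were at least 2-fold higher and 2 at least 2-fold lower, against 20.6% and 2.37% of all transcripts, and the median log2 ratio was 1.62 against 0.42. ORF transcripts had medians of 0.09 in Xrn1-AID and 0.35 in Dcp2-AID cells. CUTs and SUTs were also shifted: 39 of 104 CUTs and 18 of 50 SUTs were at least 2-fold higher in Xrn1-AID cells, and 73 of 119 CUTs and 38 of 58 SUTs in Dcp2-AID cells. By position, 101 of 239 antisense and 43 of 114 intergenic XUTs were at least 2-fold higher in Xrn1-AID cells, and 11 and 13 at least 2-fold lower. In Dcp2-AID cells 222 of 278 antisense and 93 of 123 intergenic XUTs were higher, and 2 and 0 lower. The difference between these classes was not tested.

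The XUTs with most reads were higher by less than the median of the class in Dcp2-AID cells. XUT_4R-336, which overlaps part of the YDR170W-A entry on the opposite strand, had 505 reads per 1000000 reads (RPM) in Dcp2-AID and 499 in Xrn1-AID cells, against 258 in the control. XUT_7R-426, an intergenic XUT of chromosome VII, had 428 and 382 RPM in these strains, against 250 in the control. XUT_13F-80,SUT295 covers the whole transcript of CYB2, a mitochondrial L-lactate dehydrogenase, on the opposite strand. It had 361 RPM in Dcp2-AID and 172 in Xrn1-AID cells, against 124 in the control, while CYB2 mRNA was listed with 0 reads in all 3 pools.

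The largest ratios came from XUTs with few control reads. SUT237,XUT_11F-207, antisense to the uncharacterised ORF YKR011C, had 24 reads in Xrn1-AID cells against 2 in the control (20.6-fold, 95% interval 5.12 to 180). SUT712,XUT_12R-385, which runs into the 3′ part of the ribosomal protein gene RPL6B, had 62 against 6 (17.8-fold, 7.71 to 50.2). XUT_15R-19 had 109 reads in Dcp2-AID cells against 20 in the control (9.77-fold, 6.03 to 16.6). SUT061,XUT_4F-395 had 75 reads in Xrn1-AID cells against 12 in the control (10.7-fold, 5.80 to 21.7), with a mean tail of 32.9 adenosines against 60.3. These are the extremes of many ratios, and their intervals are wide.

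XUT_15R-116,SUT768 was among the largest ratios in both strains. It covers 97.4% of the transcript of ARG1, argininosuccinate synthetase of arginine synthesis, on the opposite strand. It had 41 reads in Xrn1-AID cells (14.1-fold, 95% interval 5.57 to 45.7) and 50 in Dcp2-AID cells (17.9-fold, 7.19 to 57.6), against 5 in the control. ARG1 (YOL058W_ARG1) mRNA had 32 reads in Xrn1-AID and 328 in Dcp2-AID cells, against 7390 in the control, log2 ratios of -7.05 and -3.65. So the antisense RNA was higher and the mRNA lower in both pools, which share the control.

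Single XUTs went the other way. SUT487,XUT_4R-514, which overlaps the 5′ part of SHE9 (a mitochondrial inner membrane protein) on the opposite strand, had 3 reads in Xrn1-AID cells (22.5-fold lower, 95% interval 7.51 to 111) and 22 in Dcp2-AID cells (2.94-fold lower, 1.85 to 4.87), against 116 in the control. XUT_9F-213,SUT197 covers 96.5% of the YIR035C transcript on the opposite strand. It had 5 reads in Xrn1-AID (19.8-fold lower, 8.31 to 61.7) and 25 in Dcp2-AID cells (3.79-fold lower, 2.48 to 6.03), against 170 in the control. These 2 are the only XUTs that were at least 2-fold lower in the Dcp2-AID pool. YIR035C mRNA had 108 and 101 reads in these pools, against 145 in the control, log2 ratios of 0.36 and 0.32.

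ORF transcripts with at least 50% of their length covered by an XUT on the opposite strand were described as a group. In Xrn1-AID cells, 56 of 272 such transcripts (20.6%) were at least 2-fold lower and 29 were at least 2-fold higher, against the 9.1% and 13.5% of all transcripts given above. In Dcp2-AID cells, 13 of 284 were at least 2-fold lower (4.58%) and 69 at least 2-fold higher (24.3%), against 2.37% and 20.6% of all transcripts. Of 14 measured mRNAs for decapping and 5′ decay factors, 0 were at least 2-fold higher and 1 lower in Xrn1-AID cells, and 1 was higher and 1 lower in Dcp2-AID cells, the depleted factors included.

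The pA-tails of XUTs were shorter in both strains, by more than those of ORF transcripts. Over 298 XUTs with at least 10 reads in both columns, the mean tail lengths had medians of 34.3 adenosines (Xrn1-AID) and 44.6 adenosines (control), and 268 XUTs (89.9%) had the shorter tail in Xrn1-AID cells. The median difference was -8.82 adenosines, against -2.51 over 4739 ORF transcripts. In Dcp2-AID cells, the medians of 343 XUTs were 31.1 adenosines and 44.2 in the control, and 328 XUTs had the shorter tail. The median difference was -12.4, against -5.30 for ORF transcripts. CUTs and SUTs shifted as well, with median differences of -8.35 and -7.51 in Xrn1-AID cells and of -11.5 and -9.53 in Dcp2-AID cells. XUT and ORF tails lay close to each other in the depleted strains (34.3 and 34.9 adenosines in Xrn1-AID, 31.1 and 32.5 in Dcp2-AID cells), while in the control XUT tails were the longer ones (44.6 against 37.9 for the ORF transcripts of the Xrn1-AID comparison). CUTs and SUTs had 42.9 and 42.1 adenosines in the control of that comparison. The short end of the profile moved as well: the median 5th percentile of XUT tails was 10.4 adenosines in Xrn1-AID and 9.6 in Dcp2-AID cells, against 17.0 in the control. According to the study, the sequencing method picks up short tails less well, so the shortening in these strains may be underestimated.

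**Figure D2:**
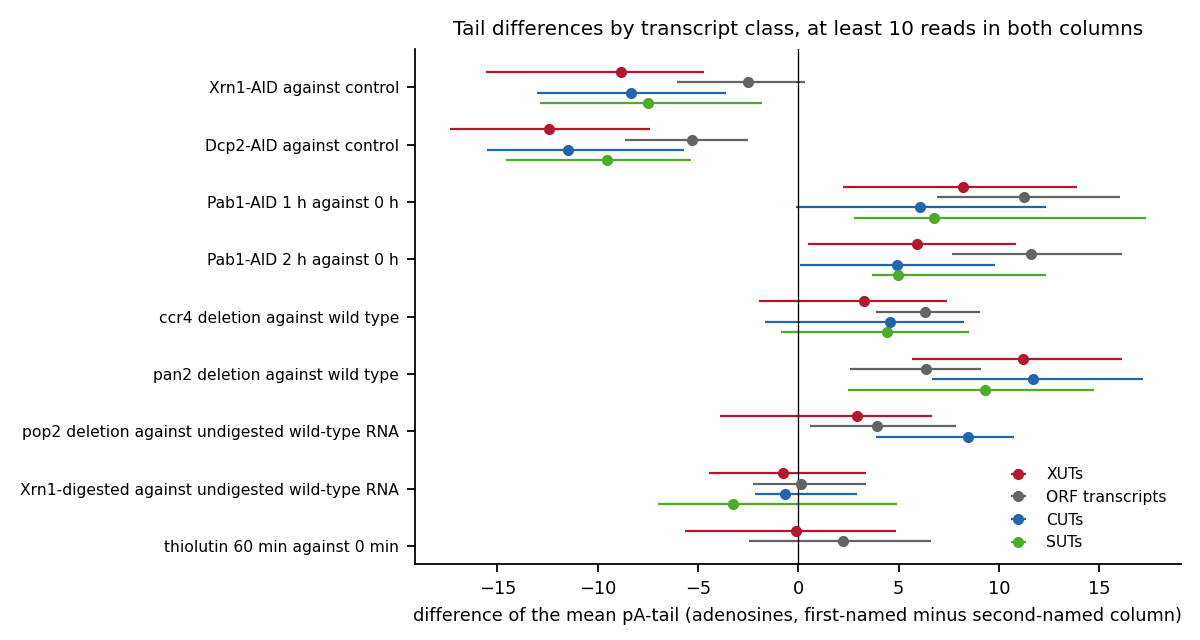
Differences in mean pA-tail length (adenosines, first-named minus second-named column) of transcripts with at least 10 reads in both columns, by class and comparison; the marks give medians and quartiles over transcripts, which are not replicates, and classes with fewer than 10 transcripts are left out. XUTs have medians of -8.82 in Xrn1-AID and -12.4 in Dcp2-AID cells and of 11.2 in the pan2 deletion.

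The largest tail differences were those of XUT_4F-160,SUT043, antisense to the protein kinase gene MRK1, with 29.0 adenosines in Xrn1-AID cells and 60.6 in the control (29 and 23 reads), and of XUT_14F-166,SUT333, which overlaps parts of PHO23 and of another entry on the opposite strand, with 27.8 in Dcp2-AID cells and 58.4 in the control (47 and 28 reads). XUT_4R-336 had 30.0 adenosines in Xrn1-AID and 26.9 in Dcp2-AID cells, against 33.1 in the control, and XUT_7R-426 had 28.9 and 23.8, against 31.6. Both XUTs had tails below the control median already in the control. The medians for antisense and intergenic XUTs were 33.5 and 34.5 adenosines in Xrn1-AID cells and 30.9 and 31.0 in Dcp2-AID cells, against 43.8 and 44.9 in the control.

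Depletion of Pab1 left the XUT share close to its starting value, with 0.346% after 1 h and 0.373% after 2 h of auxin, against 0.362% at 0 h (ratios of 0.954, 95% interval 0.922 to 0.986, and 1.03, 95% interval 0.992 to 1.07). After 1 h, 7 of 174 XUTs were at least 2-fold higher and 9 at least 2-fold lower (0.924% and 2.99% of all transcripts). After 2 h, 4 of 160 were higher and 11 lower (2.01% and 8.42% of all transcripts). With TMM factors these counts became 12 higher and 4 lower after 1 h and 17 higher and 5 lower after 2 h, so that the balance turned. Tails were longer: over 147 XUTs the medians were 56.2 adenosines after 1 h and 48.2 at 0 h, with a median difference of 8.23 and 119 XUTs longer, against a median difference of 11.2 for ORF transcripts. After 2 h, 98 of 130 XUTs were longer, by a median of 5.94 against 11.6 for ORF transcripts. Median differences of CUTs and SUTs were 6.06 and 6.77 after 1 h, and 4.93 and 4.99 after 2 h. Both times use the same 0 h pool. SUT240,XUT_11F-230, which covers the whole of YSR3 on the opposite strand, had 30 reads after 2 h against 10 at 0 h (3.24-fold, 95% interval 1.54 to 7.44), and XUT_1R-91 had 37 reads after 1 h and 31 after 2 h, against 14 at 0 h (2.39-fold at 2 h, 1.24 to 4.87). XUT_4R-336, with more reads than any other XUT, had a mean tail of 47.5 adenosines after 1 h and 52.8 after 2 h, against 39.6 at 0 h, at levels of 179, 222 and 183 RPM.

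In the ccr4 and pan2 deletions, the XUT share lay near that of wild type and tails were longer. It was 0.408% in the ccr4 deletion and 0.320% in the pan2 deletion, against 0.370% in wild type, which both comparisons share (ratios of 1.10, 95% interval 1.08 to 1.13, and 0.866, 0.845 to 0.888). The first of these directions depends on the denominator. ORF entries without a genome position, which held 0.368% of the ccr4 deletion reads, 0% of the pan2 deletion reads and 10.4% of the wild-type reads, make the log2 ratio of shares 0.14 when they are counted and -0.013 when they are not. In the pan2 deletion the same change takes the log2 ratio to -0.37, against -0.21. Of 369 XUTs, 36 were at least 2-fold higher and 27 at least 2-fold lower in the ccr4 deletion (6.11% and 30.3% of all transcripts, 8.62% and 1.78% of those with a position). Of 355 XUTs in the pan2 deletion, 12 were higher and 53 lower (1.1% and 35.1% of all transcripts, 1.55% and 8.43% of those with a position), and with TMM factors 20 were higher and 42 lower.

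Tails of XUTs, CUTs and SUTs gained more in the pan2 deletion than in the ccr4 deletion, and those of ORF transcripts gained about alike in both. Median differences in the pan2 and ccr4 deletions were 11.7 and 4.58 adenosines for CUTs, and 9.29 and 4.44 for SUTs. Over 246 XUTs the medians were 59.3 adenosines in the pan2 deletion and 48.4 in wild type, with 222 longer and a median difference of 11.2, against 6.38 for ORF transcripts. Over 256 XUTs the medians were 52.2 adenosines in the ccr4 deletion and 48.9 in wild type, with 178 longer and a median difference of 3.27, against 6.32 for ORF transcripts. The ends of the profile differed too. The median 5th percentile of XUT tails was 27.9 adenosines in the ccr4 and 27.5 in the pan2 deletion, against 19.0 and 18.8 in wild type, but the 95th percentile was 77.5 in the ccr4 deletion against 78.1, and 88.7 in the pan2 deletion against 78.8. XUT_4R-336 had mean tails of 44.4 adenosines in the ccr4 deletion (482 reads) and 46.9 in the pan2 deletion (514 reads), against 40.3 in wild type (939 reads), and XUT_7R-426 had 42.1 and 45.2, against 37.7. The largest gain in the pan2 deletion was that of YCRCdelta6,XUT_3R-54, with 64 adenosines against 41.0 in wild type (63 and 60 reads). No spread between samples can be had for these pooled columns, so the difference between the mutants was not tested.

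Among single XUTs of the deadenylase strains, XUT_13F-209,SUT305, an intergenic XUT of chromosome XIII, had 46.0 RPM in the ccr4 deletion (108 reads) against 10.4 in wild type (57 reads), 4.43-fold with a 95% interval of 3.19 to 6.22. In the pan2 deletion it had 9.35. Its mean tail was the shortest of all XUTs with at least 20 reads in the ccr4 deletion (35.0 adenosines), the pan2 deletion (36.1), the Pab1-AID 0 h pool (28.3) and the Pab1-AID 1 h pool (37.4), and it was 33.6 in wild type. XUT_15F-9, which overlaps YOL159C by 46 bases on the opposite strand, had 40 reads in the ccr4 deletion against 20 in wild type (4.68-fold, 2.67 to 8.44). In the pan2 deletion, XUT_10R-128,SUT632, which covers 97.8% of IRC8 on the opposite strand, had 22 reads against 10 in wild type (4.18-fold, 1.898 to 9.88), and XUT_12F-84, antisense to 54.5% of YLR036C, had 7 against 80 (6.02-fold lower, 2.79 to 15.4). In wild type as a whole, the tails of 279 XUTs with at least 20 reads had a median of 49.2 adenosines and quartiles of 42.6 and 55.1. They ran over 30.6 (SUT248,XUT_12F-77) to 70.9 (XUT_7F-480).

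The pop2 deletion library had an XUT share of 0.659% (2299 of 348649 reads), against 0.392% (4954 of 1264045 reads) in undigested wild-type RNA, a ratio of 1.68 with a 95% interval of 1.60 to 1.77. Of 77 XUTs with enough reads, 31 were at least 2-fold higher and 3 at least 2-fold lower (29.0% and 1.85% of all transcripts), and their median log2 ratio was 0.83, against 0.62 over all transcripts. With TMM factors 17 were higher and 10 lower. XUT_15F-9 had 19 reads against 6 (11.5-fold, 4.41 to 35.1) and XUT_13F-209,SUT305 had 18 against 10 (6.53-fold, 2.86 to 15.8). Tails of 40 XUTs differed by a median of 2.94 adenosines, against 3.94 for ORF transcripts. With 1 library a side, no replicate check was possible.

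Digestion of wild-type RNA with Xrn1 in the tube, which removes RNAs with a free 5′ monophosphate, was followed by an XUT share slightly above that of undigested RNA. It was 0.428% (4454 of 1040135 reads) against 0.392% in the undigested library (ratio 1.09, 95% interval 1.05 to 1.14). Of 107 XUTs, 8 were at least 2-fold higher and 1 at least 2-fold lower (1.67% and 5.54% of all transcripts), and the tails of 87 XUTs differed by a median of -0.77 adenosines. XUT_7R-340,SUT559, which overlaps the asparagine synthetase gene ASN2 by 169 bases on the opposite strand, had 18 reads against 4 (5.47-fold, 1.80 to 22.2), and XUT_15F-9 had 26 against 6 (5.27-fold, 2.12 to 15.6). The undigested library is the same one that served for the pop2 deletion.

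After Mex67 depletion XUTs took a smaller share of the reads. It was 0.171% ± 0.0216 at 8 to 16 min after rapamycin and 0.372% ± 0.0263 at 0 min (SD over 3 replicates, libraries of a replicate averaged), and the 9 later libraries (0.126% to 0.238%) did not overlap the 0 min libraries (0.345% to 0.398%). The lowest value was that of replicate A at 16 min. At 4 min, sampled in replicates B and C and not part of this group, the share was 0.289% and 0.312%, already below all 0 min libraries. At 20 to 30 min the share was 0.192% ± 0.0602, with values of 0.176%, 0.141% and 0.259% in replicates A, B and C. Even without pairing, an exact permutation test of 3 replicates against 3 cannot give a two-sided p below 0.1. Pairing by replicate leaves fewer arrangements still, so no p is given for shares.

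**Figure D3:**
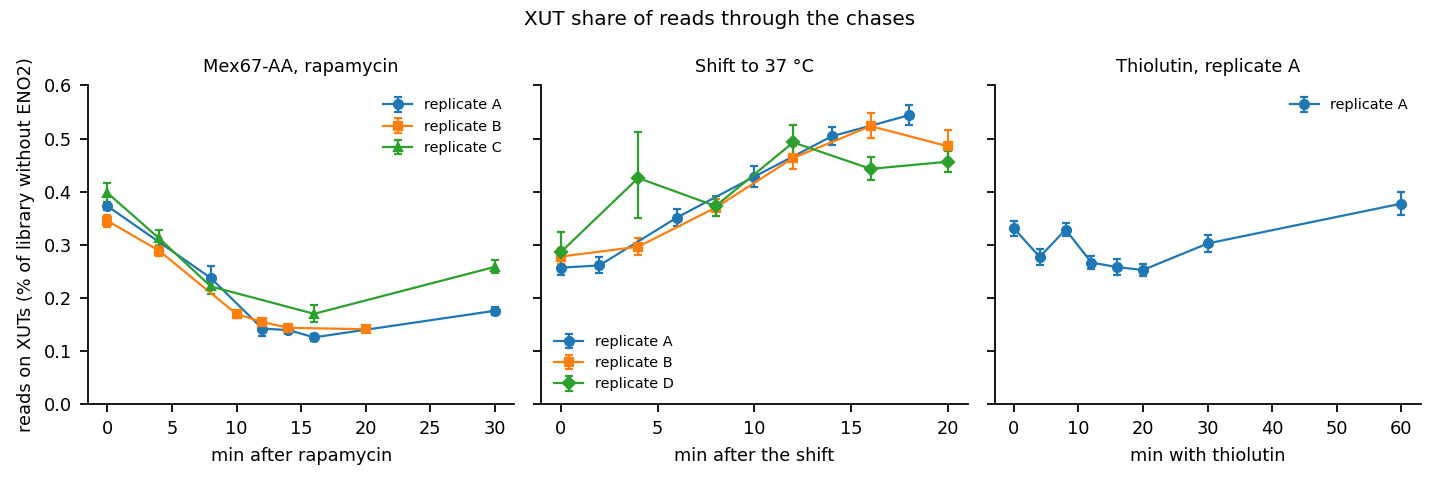
XUT share of reads in percent against time in minutes for the Mex67-AA, heat and thiolutin chases, 1 line per replicate; bars are 95% counting intervals. After Mex67 depletion the share is below all 0 min libraries from 4 min on (0.289% and 0.312% at 4 min in replicates B and C), and it reaches 0.443% to 0.544% at 14 to 20 min of heat.

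In reads relative to library totals, 308 XUTs could be tested for 8 to 16 min against 0 min (edgeR quasi-likelihood test, Benjamini-Hochberg adjustment over all 5418 transcripts, replicate as a block). Adjusted p was under 0.05 for 164 lower XUTs and 1 higher XUT, beside 61.7% lower and 2.12% higher among all transcripts. The median log2 change was -1.30 for XUTs and -1.06 for all transcripts. With TMM factors, which set the bulk of transcripts to no change, the calls were 57 lower and 9 higher. Without replicate A 53 and without replicate B 41 XUTs passed, with fewer XUTs testable (181 and 207), against 157 without replicate C. At 20 to 30 min, 95 of 271 XUTs were lower and 7 higher (63.7% and 3.77% of 5282 transcripts), and the median log2 change was -1.21 for XUTs against -1.61 for all transcripts. With TMM factors this turned to 6 lower and 23 higher. Without replicate A 23 XUTs passed, without replicate B 64 and without replicate C 81. Both times share the 0 min libraries.

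XUT_4R-336 had 60.4, 75.8 and 171 RPM as the lowest, median and highest of the 9 libraries at 8 to 16 min, against 199, 219 and 284 in the 3 libraries at 0 min. Its level fell by 1.37 on the log2 scale (SE 0.194, edgeR adjusted p = 1.82e-05), with no overlap between the groups. At 20 to 30 min it had 44.0, 57.6 and 30.7 RPM in replicates A, B and C, and fell by 2.38 (SE 0.309, adjusted p = 6.32e-06). XUT_7R-426 fell by 1.19 at 8 to 16 min (SE 0.198, adjusted p = 7.58e-05) and by 1.81 at 20 to 30 min (SE 0.305, adjusted p = 6.72e-05), but with TMM factors it did not pass at either time (adjusted p = 0.0682 and 0.341). XUT_13F-80,SUT295, the CYB2 antisense RNA, fell by 1.27 at 8 to 16 min (SE 0.237, adjusted p = 0.000201), but did not pass with TMM factors (adjusted p = 0.0675). At 20 to 30 min it fell by 1.08 (adjusted p = 0.0123), which turned to 0.36 with TMM factors and to 0.35 with DESeq2 (adjusted p = 0.412 and 0.552). Without replicate A it did not pass (adjusted p = 0.205).

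Other XUTs were nearly gone by 8 to 16 min. XUT_15R-116,SUT768, the ARG1 antisense RNA, had at most 1.11 RPM in any of the 9 libraries at 8 to 16 min (4 reads in all), against 22.0, 14.3 and 6.41 RPM at 0 min in replicates A, B and C (67 reads). It fell by 4.63 on the log2 scale (SE 0.536, edgeR adjusted p = 2.25e-06), while ARG1 mRNA had a log2 change of -0.30 (SE 0.322, adjusted p = 0.417). XUT_13F-218,YMRWdelta16 fell by 3.80 (SE 0.494, adjusted p = 6.92e-06) and SUT666,XUT_11R-117,SUT667 by 3.74 (SE 0.515, adjusted p = 1.39e-05), with 7 and 8 reads at 8 to 16 min against 61 and 58 at 0 min. These 3 stayed past the threshold with TMM factors, with DESeq2 and without any 1 replicate.

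XUT_10F-42, the short intergenic XUT whose window above holds 4 copies of TATATA, was the only XUT called higher at 8 to 16 min. It had 21 reads over the 9 libraries at 8 to 16 min, at most 20.7 RPM, against 0 reads in all 3 libraries at 0 min, which is at least 3.45-fold higher against a floor of 3 counts over the 0 min libraries (edgeR adjusted p = 0.00517). At 20 to 30 min it had 8.45, 2.74 and 26.3 RPM in replicates A, B and C (32 reads, at least 12.1-fold higher, adjusted p = 0.000347). Its mean tail at 30 min was 71.3 adenosines in replicate A and 75.7 in replicate C, from 10 and 18 reads. XUT_7F-271, whose end overlaps the start of FMP48 on the same strand, had 28.7, 2.74 and 19.0 RPM in replicates A, B and C at 20 to 30 min, against 0, 2.68 and 2.14 at 0 min (log2 change 3.53, SE 0.954, adjusted p = 0.00306). The gain lay in the 2 libraries at 30 min, where its tails had means of 82.6 and 58.6 adenosines. Without replicate A it did not pass (adjusted p = 0.233). SUT203,XUT_10F-49,XUT_10F-50, which covers the whole of YJL163C on the opposite strand, had 27 reads at 20 to 30 min against 2 at 0 min (adjusted p = 0.00481).

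XUT tails were shorter than at 0 min up to 20 min after Mex67 depletion, and mixed at 30 min. The median over XUTs with at least 10 reads was 45.8, 41.7 and 39.1 adenosines in the 0 min libraries of the 3 replicates, above the 37.7, 34.6 and 34.1 of ORF transcripts. Among the XUTs that had enough reads at both times, 19 in replicate A had a median tail of 23.6 adenosines at 16 min and 41.0 at 0 min, a median difference of -17.4, against -11.6 for ORF transcripts. In replicate B, 31 XUTs differed by -10.6 at 20 min and ORF transcripts by -6.70. At 30 min, 43 XUTs in replicate A differed by -1.30, with 21 longer and 22 shorter, and 13 in replicate C by 3.73, with 7 longer and 6 shorter, while ORF transcripts differed by -6.53 and -6.08. The time of 30 min was sampled in replicates A and C and that of 20 min in replicate B, so the step between them compares replicates as well as times.

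**Figure D4:**
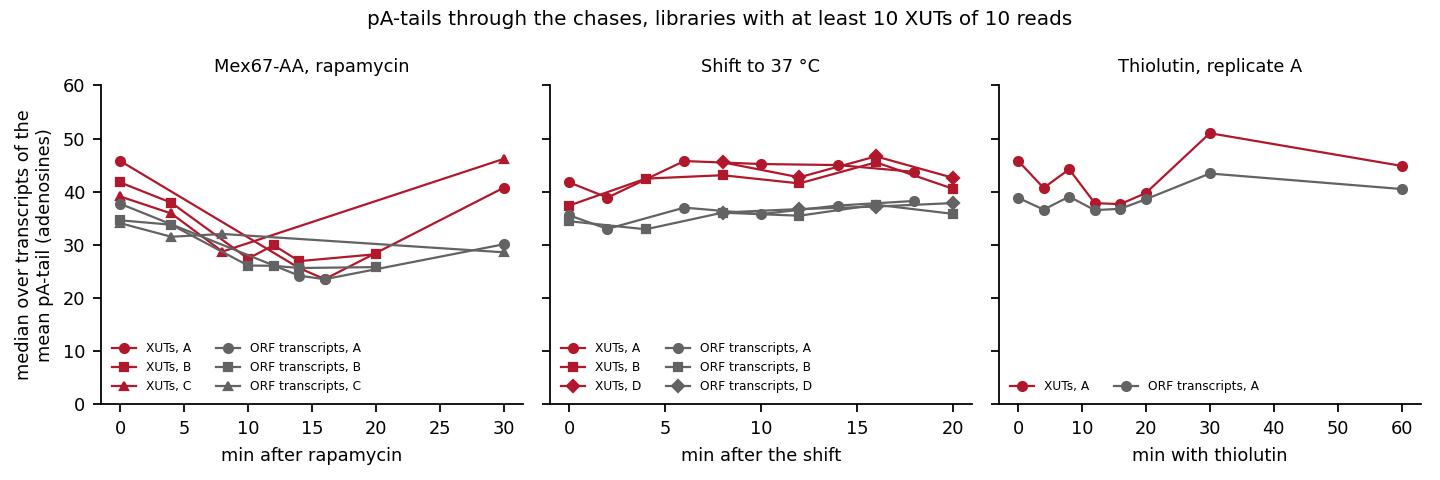
Median over transcripts of the mean pA-tail length (adenosines) against time in minutes, for XUTs and ORF transcripts with at least 10 reads in the library, by chase and replicate; libraries with fewer than 10 such XUTs are left out. After Mex67 depletion XUT medians lie at 23.6 adenosines at 16 min and at 40.8 at 30 min in replicate A.

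Only XUT_4R-336 and XUT_7R-426 had at least 10 reads in every fitted library, so that their tails could be tested. XUT_4R-336 had mean tails of 16.3 to 25.6 adenosines in the 9 libraries at 8 to 16 min, against 35.7, 33.9 and 39.0 at 0 min in replicates A, B and C. Its tail was shorter by 13.9 adenosines on average (limma difference -13.9, SE 2.22, adjusted p = 0.00322 over 1071 transcripts), and that of XUT_7R-426 by 10.8 (difference -10.8, SE 1.75, adjusted p = 0.00322). Tails of 75.6% of the tested transcripts were called shorter and of 0.187% longer. Without replicate A neither passed (adjusted p = 0.0721 and 0.0978), and without replicate B XUT_7R-426 did not (adjusted p = 0.0531), although the differences were of the same size. At 30 min these 2 still had short tails, with at most 21.2 adenosines for XUT_4R-336 and 18.8 for XUT_7R-426 in replicates A and C.

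Heat stress was followed by a higher XUT share. It was 0.346% ± 0.0478 at 2 to 8 min and 0.493% ± 0.0386 at 14 to 20 min, against 0.274% ± 0.0150 at 0 min (SD over 3 replicates). The 6 libraries at 14 to 20 min (0.443% to 0.544%) did not overlap those at 0 min (0.257% to 0.286%), while the 6 at 2 to 8 min (0.261% to 0.426%) did. The highest of the early values came from the 4 min library of replicate D, which held only 25838 reads. Both times share the 0 min libraries.

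At 2 to 8 min, 3 of 148 XUTs passed the test as higher and 0 as lower (edgeR, 1.93% and 0.142% of 4916 transcripts, 2.07% together). At an unadjusted p under 0.05, 15 were higher and 3 lower, and DESeq2 called 2. Without the replicate block 6 passed. Without replicate B, without replicate D or without the 4 min library of replicate D, 0 passed. At 14 to 20 min, 68 of 225 XUTs were higher and 1 lower (41.3% and 11.3% of 5225 transcripts). The median log2 change was 1.10 for XUTs against 0.73 for all transcripts. With TMM factors 26 were higher and 10 lower. Without replicate A 19 XUTs passed, without replicate B 37 and without replicate D 63. Of antisense XUTs 50 of 150 and of intergenic XUTs 18 of 66 were higher.

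The abundant XUTs rose late. XUT_4R-336 had 238, 271 and 380 RPM as the lowest, median and highest of the 6 libraries at 14 to 20 min, against 140, 81.1 and 69.7 at 0 min in replicates A, B and D (log2 change 1.495, SE 0.201, edgeR adjusted p = 1.14e-05). XUT_7R-426 had 163, 217 and 224, against 63.7, 81.1 and 81.4 at 0 min (log2 change 1.45, SE 0.209, adjusted p = 2.38e-05), and XUT_13F-80,SUT295 had 162, 194 and 239, against 49.5, 79.0 and 69.7 (log2 change 1.61, SE 0.230, adjusted p = 2.23e-05). The groups did not overlap for any of the 3. At 2 to 8 min their log2 changes were 0.16, 0.42 and 0.22, and none passed. Not every abundant XUT followed: SUT670,XUT_11R-124, antisense to the whole of YKL071W, had a log2 change of -0.04 at 14 to 20 min (SE 0.318, adjusted p = 0.918), and XUT_5F-128,SUT091 one of -0.06 (SE 0.304, adjusted p = 0.876).

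Of the 3 XUTs called at 2 to 8 min, 2 were above the 0 min libraries in every early library. XUT_13F-3,SUT285, whose end overlaps that of COX14 (a cytochrome c oxidase assembly factor) by 7 bases on the opposite strand, had 17.0 and 56.9 RPM at 2 and 6 min in replicate A, 34.0 and 58.6 at 4 and 8 min in replicate B, and 77.4 (2 reads) and 55.8 at 4 and 8 min in replicate D, against 3.54, 0 and 0 at 0 min in replicates A, B and D. Each heated library was above all 3 at 0 min (log2 change 4.39, SE 0.784, edgeR adjusted p = 0.0113). At 14 to 20 min the lowest, median and highest were 14.8, 27.7 and 65.8 (log2 change 4.50, SE 0.726, adjusted p = 7.57e-05), and at 20 min replicates B and D had 18.7 and 14.8. COX14 (YML129C_COX14) mRNA was also higher at 14 to 20 min (log2 change 1.44, SE 0.342, adjusted p = 0.00223). In the thiolutin chase, the same XUT had 4.78, 6.31, 9.06, 48.9, 40.0, 43.7, 43.1 and 49.9 RPM at 0, 4, 8, 12, 16, 20, 30 and 60 min, in 1 replicate without a test.

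The entry YNR068C,YNR069C,SUT758,XUT_14R-340, which also bears the names of 2 ORFs so that their reads cannot be told apart, had 23.4, 63.7 and 99.5 RPM as the lowest, median and highest of the 6 libraries at 2 to 8 min, against 4.27 to 11.6 in the 3 libraries at 0 min (log2 change 3.30, SE 0.609, edgeR adjusted p = 0.0138). It was at 123 at 10 min and 45.9 at 18 min in replicate A, and at 113 at 12 min and 18.7 at 20 min in replicate B. With thiolutin it had 4.78 RPM at 0 min, 93.1 at 20 min and 6.24 at 60 min. XUT_8F-36,SUT151, which covers 72.0% of an entry for YHL006C and YHL005C on the opposite strand, had 52 reads at 2 to 8 min, with none in the 4 min library of replicate D, and 0 at 0 min, at least 7.95-fold higher against a floor of 3 counts over the 0 min libraries (adjusted p = 0.0343). None of the 3 passed without replicate B, without replicate D or without the 4 min library of replicate D (adjusted p = 0.0544 to 0.391), although each was higher by at least 3.01 on the log2 scale.

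**Figure D5:**
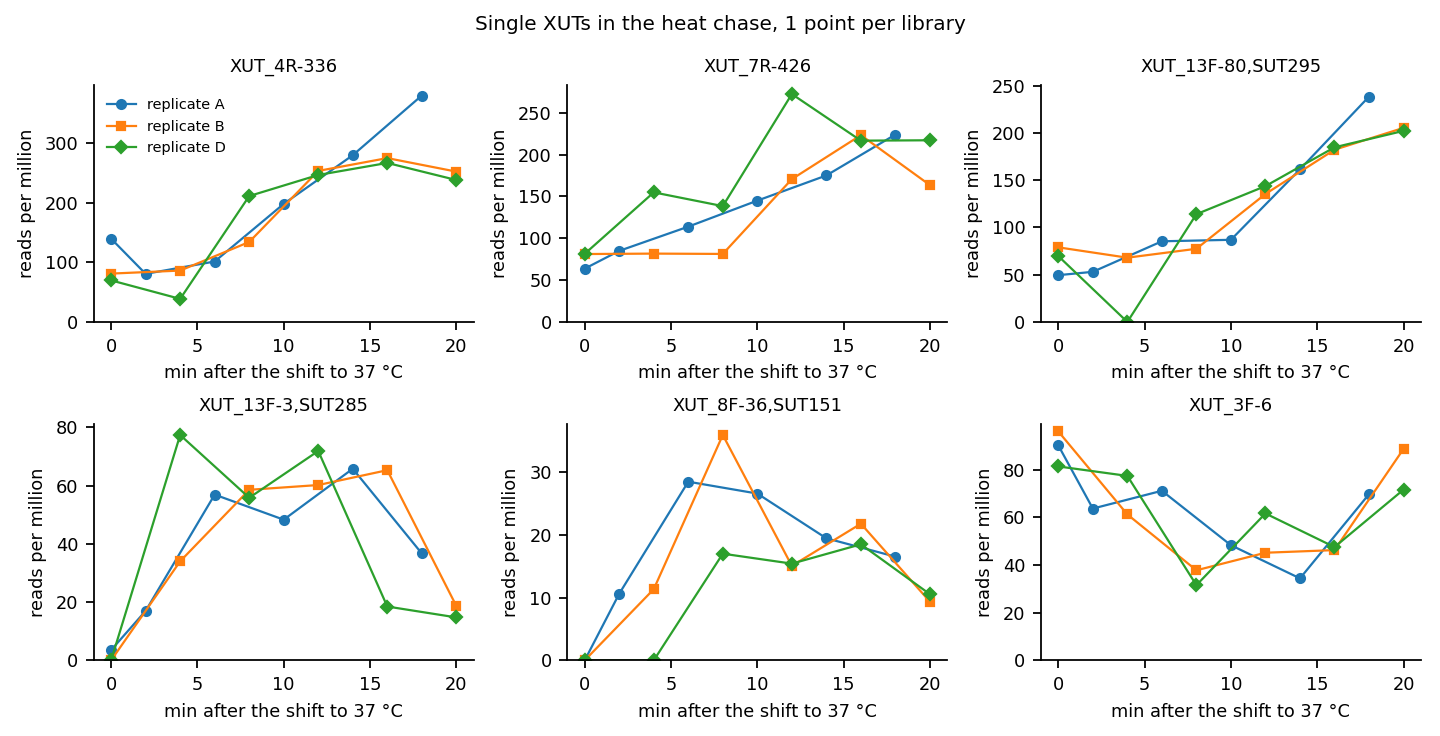
Level in RPM (linear axes that start at 0) against minutes after the shift to 37 °C for 6 single XUTs, 1 line per replicate (A, B and D) and 1 point per library. XUT_4R-336 reaches 238 to 380 at 14 to 20 min, and XUT_13F-3,SUT285 is at 14.8 to 77.4 in all heated libraries, against 0 to 3.54 at 0 min.

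Other XUTs called at 14 to 20 min had few or no reads at 0 min. XUT_4F-709,YDRWdelta31 had 65 reads at 14 to 20 min and 0 at 0 min, at least 9.16-fold higher against the same floor (edgeR adjusted p = 7.24e-05). XUT_13F-209,SUT305 had 13.2 to 34.9 RPM at 14 to 20 min, against 1.77, 2.13 and 0 at 0 min in replicates A, B and D (log2 change 3.56, SE 0.639, adjusted p = 0.000211). It also had 53.0 RPM at 60 min of thiolutin, against 9.57 at 0 min. XUT_13F-161,SUT300, which covers the whole transcript of CCS1 (the copper chaperone of superoxide dismutase) on the opposite strand, rose by 2.41 (SE 0.453, adjusted p = 0.00032), and CCS1 mRNA had a log2 change of 0.64 (SE 0.429, adjusted p = 0.213). The XUT called lower was XUT_4F-306, antisense to 66.5% of RRP1, a ribosome synthesis gene. It fell by 1.72 (SE 0.541, adjusted p = 0.014) and RRP1 mRNA was called lower as well (SE 0.419, adjusted p = 0.000395). Without replicate B (adjusted p = 0.128) or D (0.0547) XUT_4F-306 did not pass.

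No XUT had 10 reads in all 9 libraries fitted at 14 to 20 min of heat, so no tail could be tested there. Longer tails were called for 0.562% of the 889 transcripts that could be. Without replicate D, 10 XUTs could be tested, 0 of them were called (limma adjusted p), and their median difference was 2.67 adenosines, against 1.85 over all transcripts.

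In the thiolutin chase of replicate A, the XUT share was 0.331, 0.277, 0.329, 0.267, 0.258, 0.253, 0.303 and 0.378% at 0, 4, 8, 12, 16, 20, 30 and 60 min, so that it was lowest at 20 min and at 60 min above its start (ratio 1.14, 95% interval 1.06 to 1.23, counting error only). Of 25 XUTs with enough reads at 60 min, 6 were at least 2-fold higher and 7 at least 2-fold lower than at 0 min (22.9% and 25.7% of all transcripts). The lowest were XUT_3F-6 with 1 read against 73 (37.3-fold lower, 95% interval 6.49 to 1494) and XUT_3F-5 with 1 against 32 (16.4-fold lower, 2.73 to 666). XUT_9F-4 had 36.7, 58.8, 45.3, 37.3, 16.0, 12.7, 11.3 and 3.12 RPM over the 8 times, so that it was highest at 4 min and below its start from 16 min on. The median tail of XUTs with at least 10 reads was 45.8 adenosines at 0 min, 37.7 at 16 min, 51.0 at 30 min and 44.8 at 60 min.

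A few XUTs of chromosome III differed widely in reads between the strain pools. XUT_3F-5 and XUT_3F-6, neighbours on the left arm, had 9 and 10 reads in Xrn1-AID cells and 168 and 166 in Dcp2-AID cells, against 76 and 113 in the control. In the ccr4 deletion they had 7 and 13 reads and in the pan2 deletion 91 and 135, against 221 and 427 in wild type. The pair of entries HMRA1_XUT_3F-130,YCR097W and YCR097W_mRNA_XUT_3F-130,YCR097W, which have the same coordinates, had 0 and 1 reads in Xrn1-AID cells and 89 and 79 in Dcp2-AID cells, against 95 and 93 in the control, and 3 and 0 in the ccr4 deletion, against 99 and 109 in wild type. In the pan2 deletion this pair had 25 and 19 reads. All 4 entries had at most 5 reads in any Mex67-AA library. HMRA1 is the silent copy of a mating-type gene, identical in sequence to the expressed copy of a cells, and reads of such copies cannot be told apart. The strain list gives the ccr4 and pan2 deletions another background, and Xrn1-AID and Pab1-AID, unlike Dcp2-AID, the anchor-away background. In Pab1-AID cells after 1 h of auxin, XUT_3F-5 and XUT_3F-6 had 75 and 99 reads. The HMRA1 pair had 103 and 109 reads there. The part of strain background in these differences was not tested. They account for 4 of the XUTs at least 2-fold lower in Xrn1-AID cells and 4 of those in the ccr4 deletion.

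mRNAs for decay factors were followed beside the XUTs in the chases. At 8 to 16 min after Mex67 depletion, 9 of 14 tested mRNAs for decapping and 5′ decay factors and 3 of 3 for nonsense-mediated decay factors were called lower (edgeR adjusted p), and 0 higher, beside 61.7% of all transcripts. Of mRNAs for nuclear exosome and termination factors 5 of 6 were lower. At 20 to 30 min 12 of 14, 2 of 3 and 5 of 6 in these lists were lower, beside 63.7% of all transcripts, and 1 of the last was higher. No mRNA of the lists was called at 2 to 8 min of heat. At 14 to 20 min of heat, 4 of the 14 were called higher and 0 lower, and 2 of 5 exosome and termination mRNAs were lower, beside 41.3% and 11.3% of all transcripts. Of ORF transcripts covered to at least 50% by an XUT on the opposite strand, 138 of 256 were lower and 3 higher at 8 to 16 min after Mex67 depletion, beside 61.7% and 2.12% of all transcripts. At 14 to 20 min of heat, 111 of 267 were higher and 21 lower, beside 41.3% and 11.3% of all transcripts.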

How the data were processed

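The values that the authors deposited are read counts per transcript, unnormalized, and pA-tail lengths in adenosines (mean, median and percentiles over a transcript's reads), which are in neither a ratio nor a log unit. The authors called bases with Guppy, aligned reads to a custom transcriptome with minimap2 (2.17; SAMtools 1.9 and sacCer3 per the submitters' processing notes), removed supplementary and reverse-strand alignments, so that counts keep the strand, and took tails that passed the quality control of Nanopolish. From 15 tables, 338 columns of values were used and 982 were not. A library column was found for 46 samples, and pools stand for 10 groups.

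ENO2 was dropped and counts were divided by library totals. The members and lists were chosen with earlier results of these data known. Chases were tested with edgeR 4.0.16 (quasi-likelihood, at least 20 reads summed, replicate letter as a block) and tails with limma 3.58.1 in R 4.3.3. Benjamini-Hochberg adjustment ran over all transcripts tested. Libraries of 1 replicate taken at different times entered the fit one by one, and summing them was tried as an alternative. The adjusted p thus counts time points of the same replicate as separate observations. The letters name the chase experiment, and correlations of deviations between libraries of the same letter were 0.17 to 0.54 for Mex67-AA at 8 to 16 min, 0.06 to 0.33 at 20 to 30 min and -0.06 to 0.10 for heat. Pooled and single columns got no test, only ratios with exact counting intervals (SciPy 1.17.1). The XUTs named are the 10 with most reads, up to 8 per direction with the smallest adjusted p under 0.05 in a tested comparison or with the largest ratio in an untested one, and the 3 with the largest tail difference in each direction. SUT670,XUT_11R-124 and the others named as not called belong to the top 10. XUT_3F-5, XUT_3F-6 and the HMRA1 entries were set side by side over all strains after their values were seen, as were the thiolutin values of XUTs called after heat. In counts simulated for 5418 transcripts, changes were placed only in transcripts with at least 100 reads. Of these, the test recovered 58% of 2-fold and 97% of 4-fold changes at 8 to 16 min after Mex67 depletion. It recovered 26% of 2-fold changes at 20 to 30 min, 26% at 2 to 8 min of heat and 64% at 14 to 20 min. Recovery for XUTs with fewer reads was not measured, and simulated libraries of 1 replicate did not deviate together. Alternatives were other normalizations (TMM, DESeq2 1.42.0), other minimum counts, other denominators, and leaving out each replicate.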

Additional observations from a re-analysis of the deposited data

Results flagged for a closer look

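XUT reads also appear in 2 pooled columns that no comparison used. The pooled column of thiolutin replicate B gives no time, so it was compared with nothing. XUT reads were 0.423% of it (25186 of 5951974 reads, 95% interval 0.418% to 0.428%), with 927 XUTs detected. The pooled column of Mex67-AA cells after rapamycin and heat, which the titles place at 37 °C and 16 min, had 0.174% (4278 of 2457870 reads, 0.169% to 0.179%), with 550 XUTs detected.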

How the results depend on the processing

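Alternatives kept 115 of the summary values, moved 39 and reversed 4. Of the changes of single XUTs, 421 kept their call, 61 lost it and 6 reversed. A minimum of 50 reads in place of 20 gave 66 XUTs at least 2-fold higher in Xrn1-AID, 170 in Dcp2-AID, 2 at 1 h and 0 at 2 h of Pab1 depletion, 11 in the ccr4, 3 in the pan2 and 3 in the pop2 deletion, 1 after digestion and 0 at 60 min of thiolutin, since fewer XUTs were left. TMM factors shift log2 ratios by -0.11 (Xrn1-AID), -0.40 (Dcp2-AID), 0.20 and 0.23 (Pab1-AID, 1 h and 2 h), -0.56 (pop2), 0.11 (digested) and -0.12 (thiolutin), and gave 12 and 17 XUTs for Pab1-AID, 20 for pan2 and 17 for pop2; with 2 reads added, 1 was left at 1 h of Pab1 depletion. Median instead of mean tails gave differences of -12.0 (Xrn1-AID) and -15 (Dcp2-AID). The thiolutin tail difference of -0.116 over 10 XUTs became 5.28 with at least 20 reads. Only positioned transcripts gave log2 share ratios of -0.0127 (ccr4) and -0.366 (pan2), and the second table of digested RNA one of 0.199; these were chosen after seeing the data. In the chases the number of XUTs called was 66 with TMM factors, 45 with DESeq2 and 22 at 100 reads for Mex67-AA at 8 to 16 min, 29, 19 and 15 at 20 to 30 min, where both scalings turned most calls to higher, and 36, 14 and 18 at 14 to 20 min of heat. At 20 to 30 min, SUT670,XUT_11R-124, XUT_13F-80,SUT295 and XUT_4F-255 turned to log2 changes of 0.50, 0.36 and 0.31 with TMM factors and of 0.48, 0.35 and 0.27 with DESeq2, none past the threshold. At 2 to 8 min of heat, 7 XUTs were called without a filter, 13 with the libraries of a replicate summed and 0 without the 4 min library of replicate D (both chosen after seeing the data). Without 1 replicate, 41 to 157 and 23 to 81 XUTs were called for Mex67-AA, 0 to 4 and 19 to 63 for heat, and tails of 0 to 3 XUTs. Without pairing by replicate block, 168, 102, 6 and 64 XUTs were called, against 165, 102, 3 and 69. The cause of these shifts was not tested. For heat tails, the fit without the block, median tails, 20 reads and leaving out replicate A or B were not run, as no XUT had enough reads in every library.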
